A study of Homo sapiens with 12 samples.

Results

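The urea cycle and glutamine genes described here are CPS1, ASS1, ASL, ARG1, OTC, NAGS, GLUL, GLS2 and SLC25A15. They were chosen by function and found by gene symbol: all 9 are among the 63677 genes of the count table, and all 9 were among the 17092 genes that passed the filter on low counts. RNA was sequenced from Huh7 cells, an established human hepatocellular carcinoma line, in 4 groups of 3 samples. Untreated cells received medium only. The other groups were exposed for 6 h to graphene oxide (GO) at 400 µg/mL, to GO carrying the ginsenoside Rg3 (GO-Rg3) at 400 µg/mL, or to GO-Rg3 loaded with the chemotherapy drug doxorubicin (GO-Rg3-DOX) at 100 µg/mL. Cells given free doxorubicin were not analysed here, and the GO-Rg3-DOX dose was lower than the others, so the drug, its carrier and the dose cannot be told apart in that group. All samples are of a single cell line. The labels number the replicates but do not say whether they were separate cultures, so p-values measure the spread between these samples, which may be technical.

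The urea cycle turns toxic ammonia into urea in liver cells. In mitochondria, NAGS makes N-acetylglutamate, the obligate activator of CPS1; CPS1 joins ammonia and bicarbonate into carbamoyl phosphate; and OTC uses this with ornithine to make citrulline, which SLC25A15 exchanges for ornithine across the inner membrane. In the cytosol, ASS1 and ASL convert citrulline to arginine, and ARG1 splits arginine into urea and ornithine. Liver cells around the portal vein combine this cycle with the liver glutaminase GLS2, which frees ammonia from glutamine, whereas cells around the central vein hold glutamine synthetase (GLUL), which captures the ammonia that escapes and is a known target of beta-catenin.

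The sequences just before the start of NAGS, ASL and OTC are shown because, of the genes with a single listed start, NAGS fell most and ASL and OTC rose most after GO-Rg3-DOX. Each is the 250 bases before the start in the RefSeq promoter table (GRCh38.p14), and each was found 1 time, without a mismatch, on its chromosome in GRCh37, the build of the counts. Capitals mark matches to 3 short motifs, searched on both strands. They are the GC box (GGGCGG), the core promoter motif called the TATA box (the letters TATAAA), and the motif of the factor NF-Y (the letters CCAAT), called the CCAAT box. On GRCh37 the windows are chr17:42081740-42081989 for NAGS, chr7:65540556-65540805 for ASL and chrX:38211607-38211856 for OTC, all on the plus strand.
NAGS: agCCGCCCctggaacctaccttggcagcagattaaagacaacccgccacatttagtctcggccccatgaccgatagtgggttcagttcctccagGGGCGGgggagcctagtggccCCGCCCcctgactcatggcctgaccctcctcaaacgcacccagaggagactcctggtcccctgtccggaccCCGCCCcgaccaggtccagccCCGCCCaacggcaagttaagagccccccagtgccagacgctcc
ASL: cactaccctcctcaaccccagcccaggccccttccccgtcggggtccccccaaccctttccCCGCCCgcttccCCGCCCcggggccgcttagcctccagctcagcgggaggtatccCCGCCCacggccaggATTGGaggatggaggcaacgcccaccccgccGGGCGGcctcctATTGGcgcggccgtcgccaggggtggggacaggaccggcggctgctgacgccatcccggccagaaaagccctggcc
OTC: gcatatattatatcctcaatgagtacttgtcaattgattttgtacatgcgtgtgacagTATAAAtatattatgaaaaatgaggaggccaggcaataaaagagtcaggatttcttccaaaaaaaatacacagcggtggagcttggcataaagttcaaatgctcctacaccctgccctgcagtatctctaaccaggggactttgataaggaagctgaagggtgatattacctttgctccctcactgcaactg
The NAGS window has a GC content of 65.6% and 5 GC boxes. The ASL window has 74.0% GC, 4 GC boxes and 2 CCAAT boxes. The OTC window has 40.4% GC and 1 match to the TATA box letters, which starts 192 bases before the start site. That is a match of letters only. Thus a gene that fell and a gene that rose after GO-Rg3-DOX share a GC-rich window with GC boxes, and another gene that rose has an AT-rich window.

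Across the promoter windows of all 9 genes, which in the table run 50 bases past the start and number more than 1 for CPS1, ASS1 and GLUL, a GC box was found in 6 genes (ASS1, ASL, NAGS, GLUL, GLS2 and SLC25A15). Of all 35116 promoters in the table, 45.0% hold it. Here and below, a gene counts if any of its windows holds the motif, whereas the shares are of single windows. Genes with more windows therefore have more chances to count. The TATA box letters were found in ARG1 and OTC, against 11.5% of all promoters. The match starts 29 bases before the start of ARG1 but 192 bases before that of OTC. A CCAAT box was found in CPS1, ASL and GLUL, against 34.6% of all promoters. The E box CACGTG was found in CPS1 and ASS1, against 7.26%. The C/EBP motif TTGCNNAA and the cAMP response element TGACGTCA are in 10.5% and 1.85% of all promoters and in 0 of the 9 genes' windows, which says only that these letters are not there.

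Libraries held 27802871 to 38877420 counts. Mitochondrially encoded genes took 5.31 to 6.28% of the counts in untreated cells, 6.89 to 7.42% after GO-Rg3, 12.1 to 24.1% after GO and 12.8 to 19.4% after GO-Rg3-DOX. Their part in the results below was not tested beyond a fit without these genes. Of 15 hepatocyte markers, 14 averaged at least 1 CPM (counts per 1000000 counts) in every group. Of 10 markers of other cells, only LYZ and EPCAM did so in untreated cells, and PECAM1 (endothelium) and KRT7 (bile duct) were at 0 in all 12 samples. Over all genes tested, the change between groups was related to the GC content of transcripts, with a Spearman correlation of 0.44 for GO against untreated cells, 0.20 for GO-Rg3, 0.37 for GO-Rg3-DOX and −0.44 for GO-Rg3 against GO (16622 genes, a description across genes). With library totals in place of the TMM scaling used throughout, the all-gene median of the log2 fold change moved from −0.06 to −0.47 after GO-Rg3-DOX, from 0.01 to −0.11 after GO and from −0.02 to 0.12 for GO-Rg3 against GO. The share of changed genes that were higher moved with it from 45.5 to 22.8%, from 44 to 30.5% and from 54.0 to 71.3%, and for GO-Rg3 against untreated cells from 35.7 to 16.7%.

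In untreated cells the 9 genes spanned a wide range of levels. Levels are TMM-normalized CPM, and between genes they are compared as CPM per kb of transcript. GLUL was highest, at 48.2 CPM per kb, followed by ASL at 27.5 and ASS1 at 17.3. SLC25A15 (5.58) and ARG1 (5.45) did not differ beyond their spread. OTC followed at 2.93 CPM per kb. NAGS (0.941) and CPS1 (0.852) overlapped, and GLS2 was lowest at 0.572. The cytosolic enzymes ASS1 and ASL were thus more abundant per length than the mitochondrial enzymes CPS1 and OTC, and CPS1 was among the lowest of the cycle. After GO-Rg3-DOX the order changed at both ends: ASL (55.1 CPM per kb) stood above GLUL (31.5), and NAGS (0.205) stood below GLS2 (0.465), in every sample.

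**Figure D1:**
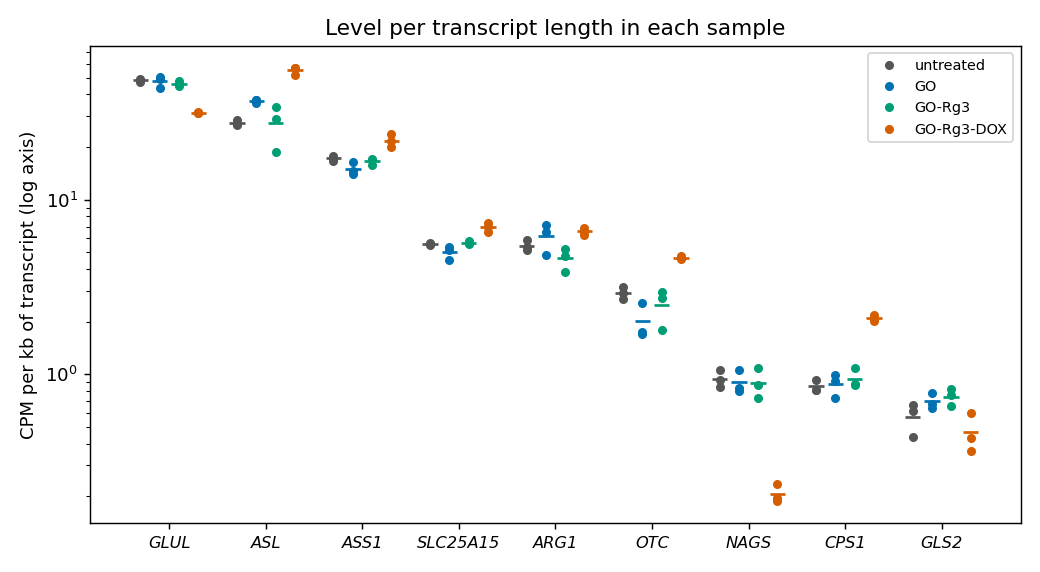
Level of each gene in CPM per kb of transcript, on a log axis, in each of the 12 samples (points, coloured by group, with a bar at the group mean), ordered by the untreated mean. GLUL and ASL exchange places in the GO-Rg3-DOX group, and NAGS falls below GLS2.

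GO-Rg3-DOX was the treatment after which these genes changed. At an adjusted p below 0.01, 7 of the 9 genes differed from untreated cells, where 56.0% of all genes tested did. Of these 7, 5 were higher (background 25.5%) and 2 were lower (background 30.5%). Only 3 also passed an absolute log2 fold change of 1, namely CPS1 and, just past it, ASL among the higher genes (background 12.6%) and NAGS among the lower genes (background 18.2%). The groups did not overlap for 8 of the 9 genes, all but GLS2, against 75.3% of all genes. The median log2 fold change of the 9 genes was 0.32, that of all genes −0.06, and the median absolute log2 fold change was 0.61 against 0.69 for all genes. A share of 77.8% of 9 genes thus stands beside 56.0% of all genes, with changes of about the usual size, and the list itself was not tested. The comparisons of the 3 treatments with untreated cells share the same 3 control samples. In bulk RNA, fewer cells that express a gene and less of its RNA per cell cannot be told apart. Statistics below are log2 fold changes with standard errors and Benjamini-Hochberg adjusted p-values of edgeR's quasi-likelihood test.

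NAGS, the source of the CPS1 activator, fell most. Its CPM was 2.22, 1.79 and 1.95 in untreated samples and 0.41, 0.40 and 0.50 after GO-Rg3-DOX. These levels rest on 56 to 84 counts per untreated sample and 10 to 13 counts per treated sample. Every treated sample was below every untreated one, and below every sample of the other 2 treatments, which lay between 1.54 and 2.30 CPM. The log2 fold change was −2.19 ± 0.25 (SE, n = 3 against 3, adjusted p = 1.5e-06), a 4.56-fold lower level. NAGS lies at chr17:42081990-42086436 (GRCh37, plus strand) and overlaps no other annotated gene.

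CPS1, the first enzyme of the cycle, moved the opposite way. Its CPM was 4.68, 4.70 and 5.35 in untreated samples and 12.65, 11.93 and 11.63 after GO-Rg3-DOX, with no overlap. The log2 fold change was 1.29 ± 0.14 (SE, adjusted p = 9e-07), a 2.45-fold higher level. CPS1 lies at chr2:211342406-211543831 on the plus strand. The enzyme's RNA therefore rose in the samples in which the RNA of the enzyme that makes its activator fell.

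OTC, which takes up the product of CPS1, also rose. Its CPM was 4.13, 4.44 and 4.83 in untreated samples and 7.00, 7.22 and 6.98 after GO-Rg3-DOX. The groups were apart by more than their spread, with a log2 fold change of 0.66 ± 0.18 (SE, adjusted p = 0.005). The call was close to the threshold: the adjusted p was 0.01 to 0.024 when any of the 6 samples was left out. It was also lost with library totals alone (log2 fold change 0.24, adjusted p = 0.32) and with a gene length offset (0.47, adjusted p = 0.042).

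SLC25A15, the ornithine and citrulline carrier of the inner mitochondrial membrane, rose by less. Its CPM was 21.32, 21.10 and 21.55 in untreated samples, and 24.97, 28.03 and 26.61 after GO-Rg3-DOX. The log2 fold change was 0.32 ± 0.10 (SE, adjusted p = 0.0096), and with library totals alone it reversed to −0.10. Leaving out a sample moved the adjusted p to between 0.025 and 0.044 in 5 of 6 fits, and to 0.0077 without GO-Rg3-DOX replicate 1. The microRNA gene MIR621 overlaps SLC25A15 and was listed at 5.34 CPM in untreated cells, so the division of reads between them is uncertain.

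Of the cytosolic enzymes, ASL rose most. Its CPM was 61.27, 57.16 and 58.27 in untreated samples and 111.24, 120.65 and 121.93 after GO-Rg3-DOX. This 2.0-fold rise had a log2 fold change of 1.0 ± 0.15 (SE, adjusted p = 3.5e-05). ASL passed the test without any of the 6 samples and under every scaling tried, but with an offset for GC content the log2 fold change was 0.49.

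ASS1, the step before ASL, had 27.25, 26.66 and 25.53 CPM in untreated samples and 30.74, 33.03 and 36.30 after GO-Rg3-DOX. The groups did not overlap, and the log2 fold change was 0.33 ± 0.10 (SE, adjusted p = 0.008). The direction depended on the scaling: it was −0.08 with library totals alone and −0.02 with a GC content offset, and with a gene length offset it was 0.14 and did not pass (adjusted p = 0.17). When a sample was left out, the adjusted p was 0.02 to 0.045 in 5 of 6 fits, and 0.005 without GO-Rg3-DOX replicate 1. ASS1 has many processed pseudogenes. The copy with the most counts in the table, ASS1P12, was at 0.682 CPM in untreated cells, and how reads that match several copies were counted is not given in the sources used here.

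ARG1, the last step, had 8.52, 7.42 and 7.73 CPM in untreated samples and 9.97, 9.49 and 9.04 after GO-Rg3-DOX. Although the groups did not overlap, the difference did not pass the test (log2 fold change 0.27 ± 0.15 SE, adjusted p = 0.13). It was −0.15 with library totals alone and 0.51 with a GC content offset, where it did pass (adjusted p = 0.0013). ARG1 overlaps MED23 on the opposite strand, which had 37.1 CPM in untreated cells and fell by 0.83 on the log2 scale, and whether strand was used in counting is not given in the sources used here.

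On the glutamine side, GLUL fell. Its CPM was 371.91, 354.85 and 365.29 in untreated samples and 237.39, 238.47 and 237.23 after GO-Rg3-DOX. The 3 treated samples lay close together and below all 9 others, of which the lowest had 327.03 CPM. The log2 fold change was −0.61 ± 0.09 (SE, adjusted p = 1.3e-05), a 1.53-fold lower level, and the call held without any of the 6 samples. GLS2, which frees ammonia from glutamine, had 1.59, 1.47 and 1.04 CPM in untreated samples and 0.87, 1.44 and 1.03 after GO-Rg3-DOX. These groups overlapped, and at 21 to 60 counts per sample a difference was not detected (log2 fold change −0.28 ± 0.24 SE, adjusted p = 0.31). SPRYD4 overlaps GLS2 on the opposite strand and had 9.56 CPM in untreated cells, so the level of GLS2 and its place in the order of levels are uncertain.

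**Figure D2:**
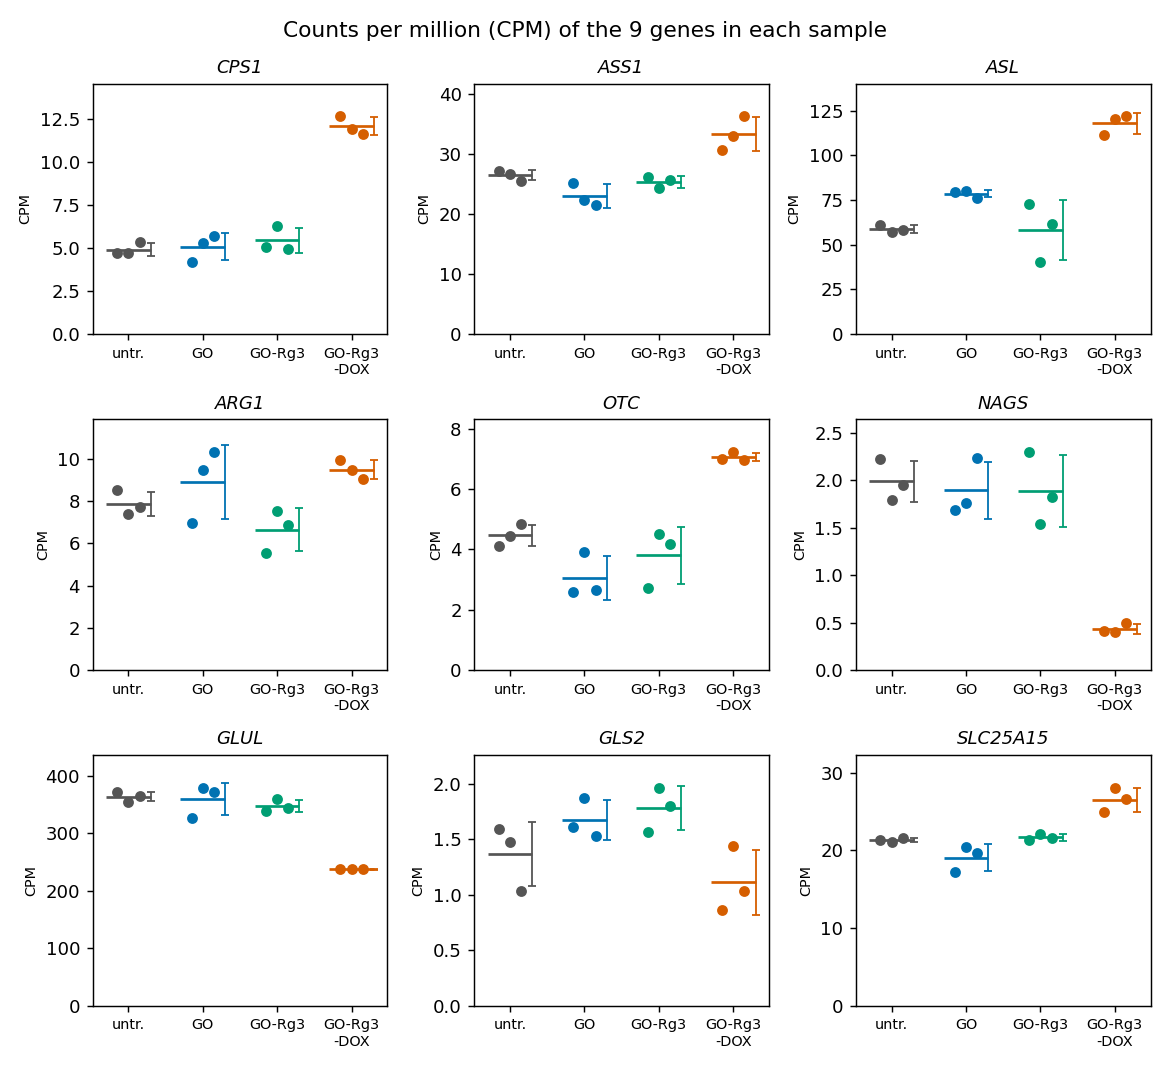
CPM of each gene in each sample (points) for untreated cells and the 3 treatments, with the mean as a bar and the SD of 3 samples beside it, and axes from 0. NAGS and GLUL are lowest and CPS1, ASL and OTC highest in the 3 GO-Rg3-DOX samples.

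Across fits, CPS1 and ASL stayed higher and NAGS and GLUL lower after GO-Rg3-DOX, and these 4 genes passed the test under library totals alone. ASS1, ARG1 and SLC25A15 were higher by 0.27 to 0.33 on the log2 scale with TMM scaling, which is less than the shift of the median of all genes between the scalings, and their sign was not the same under both.

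**Figure D3:**
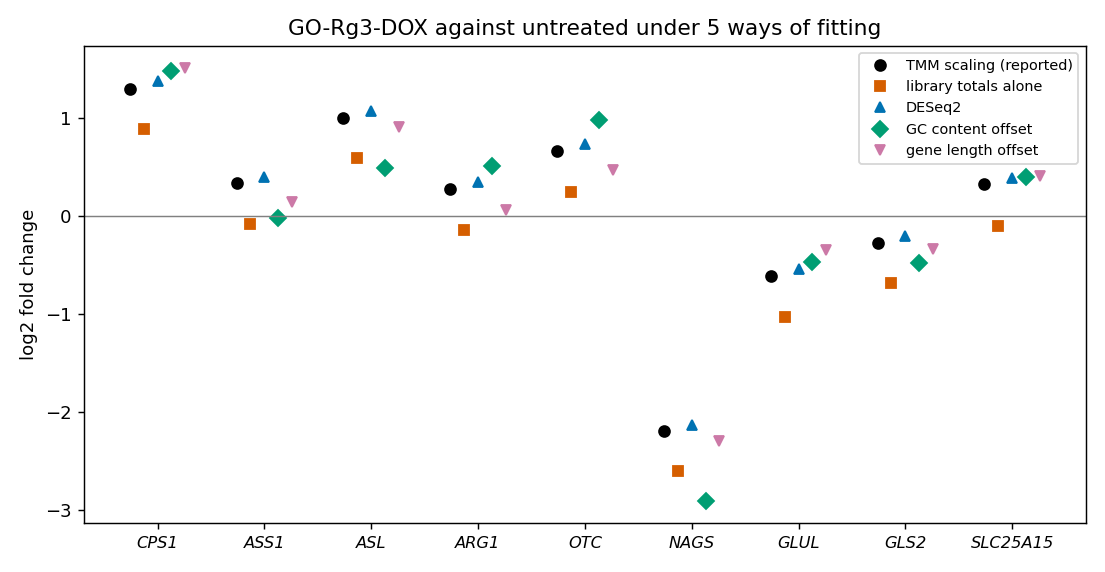
Log2 fold change of each gene after GO-Rg3-DOX under the reported fit (TMM scaling), library totals alone, DESeq2, a GC content offset and a gene length offset. Points of CPS1, ASL and OTC stay above 0 and those of NAGS, GLUL and GLS2 below, while ASS1, ARG1 and SLC25A15 cross 0 with library totals, and ASS1 also with the GC content offset.

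After GO alone, 0 of the 9 genes passed an adjusted p of 0.01 in edgeR's quasi-likelihood test, where 27.6% of all genes did (12.1% higher and 15.4% lower). At an unadjusted p under 0.05 there were 2, ASL and OTC, and DESeq2 also called 0. The groups did not overlap for 4 genes, against 58.5% of all genes. ASL had 79.62, 80.04 and 76.18 CPM after GO against 57.16 to 61.27 in untreated cells, with no overlap and a log2 fold change of 0.42 (adjusted p = 0.039). With only the 6 samples compared in the fit, the adjusted p of ASL was 0.0019. A GC content offset brought its log2 fold change to 0.12 (adjusted p = 0.3), and library totals alone to 0.3 (adjusted p = 0.18). OTC was lower, at 2.58, 3.91 and 2.66 CPM against 4.13 to 4.83, also with no overlap (log2 fold change −0.54, adjusted p = 0.034). Without GO replicate 2, the highest of the 3, the log2 fold change of OTC was −0.77 (adjusted p = 0.0075). In 5 of the 6 fits with a sample left out its adjusted p stayed above 0.01, at up to 0.13. A GC content offset brought its log2 fold change to −0.3 (adjusted p = 0.14). ASS1 (21.48 to 25.22 CPM after GO) and SLC25A15 (17.15 to 20.44 CPM) lay just below their untreated ranges, with log2 fold changes of −0.20 (adjusted p = 0.11) and −0.16 (adjusted p = 0.2). With a GC content offset that of ASS1 was −0.43 and passed the test (adjusted p = 0.00085).

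The other genes overlapped untreated cells after GO. CPS1 had 4.19 to 5.72 CPM, NAGS 1.68 to 2.24 CPM and GLUL 327.03 to 378.95 CPM. ARG1 was variable, at 6.97, 9.47 and 10.33 CPM (log2 fold change 0.18, adjusted p = 0.34). GLS2 had 1.53 to 1.87 CPM (log2 fold change 0.30, adjusted p = 0.27). GO samples were also the most variable in the mitochondrial share of counts, and the sample with the highest share, replicate 1 at 24.1%, had the lowest CPS1, ARG1, OTC, NAGS, GLUL and SLC25A15 of the 3. It also had the highest ASS1, at 25.22 CPM, and its ASL and GLS2 lay between those of the other GO samples. Whether this share had a part in those levels was not tested.

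After GO-Rg3, 0 of 9 genes changed in edgeR's test (0 at an unadjusted p under 0.05, and 0 by DESeq2), where 0.164% of all genes did, and every gene overlapped its untreated range, whereas 25.8% of all genes did not. Log2 fold changes ran from −0.25 for ARG1 (5.54, 7.55 and 6.87 CPM, adjusted p = 0.53) to 0.39 for GLS2 (1.57, 1.96 and 1.80 CPM, adjusted p = 0.48). ASL was unlike the others in its spread. It had 73.01, 40.21 and 61.84 CPM, an SD of 16.7 CPM against 2.13 in untreated cells, with samples on both sides of the untreated range. NAGS (1.54 to 2.30 CPM), CPS1 (4.97 to 6.27 CPM) and GLUL (339.22 to 358.91 CPM) stayed near untreated levels. A missed threshold does not show that levels were equal.

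GO-Rg3 and GO were given at the same dose and time, so they can be set side by side directly. The paper reports, however, that loading Rg3 made the flakes larger and thicker and their surface charge less negative. Rg3 itself and these changes of the particle cannot be told apart here. Of the 9 genes 0 differed at an adjusted p below 0.01 in edgeR's test (2 at an unadjusted p under 0.05, and 0 by DESeq2), where 13.6% of all genes did. ARG1 (6.66 ± 1.02 CPM after GO-Rg3 against 8.92 ± 1.74 after GO, mean ± SD, n = 3) had a log2 fold change of −0.43 (adjusted p = 0.047). ASL (58.4 ± 16.7 against 78.6 ± 2.12 CPM) also had −0.43 (adjusted p = 0.049), and OTC (3.80 ± 0.941 against 3.05 ± 0.742 CPM) had 0.30 (adjusted p = 0.27). Single samples moved both near calls in either direction. Without GO replicate 1 the log2 fold change of ARG1 was −0.58 (adjusted p = 0.0072), and without GO-Rg3 replicate 1 that of ASL was −0.62 (adjusted p = 0.0045). However, without GO replicate 3 that of ARG1 was −0.32 (adjusted p = 0.19), and without GO-Rg3 replicate 2 that of ASL was −0.22 (adjusted p = 0.12). Fitted with only the 6 samples compared, both had an adjusted p of 0.15. With a GC content offset, ARG1 passed at −0.59 (adjusted p = 0.0016) and ASS1 at 0.33 (adjusted p = 0.0089), whereas without it ASS1 had 0.14 (adjusted p = 0.31). The same offset brought ASL to −0.23 (adjusted p = 0.063).

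**Figure D4:**
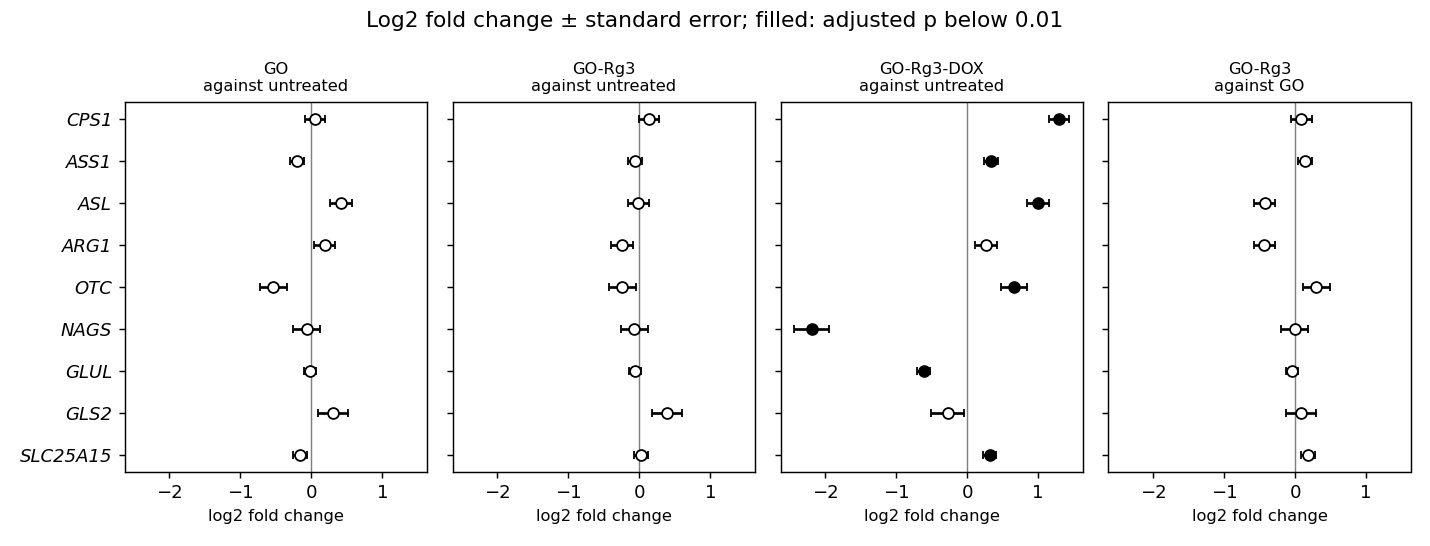
Log2 fold change with its standard error for the 9 genes in the 4 comparisons, filled where the adjusted p is below 0.01. The 7 filled points are all in GO-Rg3-DOX against untreated cells, and of them the signs of ASS1 and SLC25A15 reverse with library totals alone.

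Among 5 tested partners of the cycle, 2 changed after GO-Rg3-DOX, 1 in each direction, beside 56.0% of all genes. With library totals alone 0 rose and 2 fell. SLC25A29, a mitochondrial carrier of basic amino acids, fell from 7.13 to 1.95 CPM on average (log2 fold change −1.87 ± 0.13 SE, adjusted p = 1.5e-08) but rose after GO (0.76 ± 0.11 SE, adjusted p = 0.00013). Its call after GO was lost with a GC content offset, where 0 of the 5 partners rose and 0 fell. SLC25A13 (citrin), which supplies aspartate for ASS1, was higher after GO-Rg3-DOX by 0.33 (adjusted p = 0.0031), a sign that reversed with library totals alone. ARG2, the mitochondrial arginase, had 4.66 CPM in untreated cells and 5.15 after GO-Rg3-DOX (adjusted p = 0.46).

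Enzymes that make or use glutamine and glutamate changed in both directions. Of 18 tested, 9 rose and 3 fell after GO-Rg3-DOX (median log2 fold change 0.40), beside 25.5% and 30.5% of all genes. With library totals alone 4 rose and 3 fell. GLUD1, glutamate dehydrogenase, which releases ammonia from glutamate in mitochondria, rose from 240 to 427 CPM (log2 fold change 0.83 ± 0.09 SE, adjusted p = 6.2e-07). GOT2, the mitochondrial aspartate aminotransferase, rose by 0.77 ± 0.11 (SE, adjusted p = 1.3e-05). The nucleotide enzymes PPAT and GMPS, which spend glutamine nitrogen on purines, fell by 1.05 and 0.79 on the log2 scale (adjusted p = 2.1e-05 and 1.1e-06). GPT2, the mitochondrial alanine aminotransferase, rose by 0.48 (adjusted p = 0.00055).

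After GO, 4 of the 18 enzymes rose and 2 fell, beside 12.1% and 15.4% of all genes. With library totals alone the counts were 2 and 2. Asparagine synthetase ASNS rose from 40.8 to 73.3 CPM (log2 fold change 0.84 ± 0.11 SE, adjusted p = 4.5e-05). ASNS was 38.3 CPM after GO-Rg3, lower than after GO by a log2 fold change of −0.94 (adjusted p = 4.8e-05). After GO-Rg3-DOX it was higher by 0.37 (adjusted p = 0.0081), with a sign that reversed with library totals alone. CAD, the cytosolic enzyme that starts pyrimidine synthesis from glutamine, had a log2 fold change of 0.21 after GO-Rg3-DOX (adjusted p = 0.065), and GOT1 had 139 and 161 CPM (adjusted p = 0.06).

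Carriers of glutamine, glutamate and cationic amino acids moved both ways. Of 20 tested, 7 rose and 5 fell after GO, beside 12.1% and 15.4% of all genes. After GO-Rg3-DOX 7 rose and 5 fell, beside 25.5% and 30.5% of all genes. With library totals alone the counts were 5 and 5 after GO, and 3 and 8 after GO-Rg3-DOX. SLC38A2, a sodium-coupled glutamine carrier, fell from 270 to 74.9 CPM after GO-Rg3-DOX (log2 fold change −1.85 ± 0.15 SE, adjusted p = 4.2e-08) and to 172 CPM after GO (−0.64, adjusted p = 0.0024). SLC25A18, a mitochondrial glutamate carrier, rose from 2.63 to 15.9 CPM after GO-Rg3-DOX (2.59 ± 0.16 SE, adjusted p = 2.3e-09). The glutamate carrier SLC1A3 fell from 106 to 26.5 CPM after GO (−2.00 ± 0.10 SE, adjusted p = 7.2e-09) and was 97.7 CPM after GO-Rg3, above GO by 1.88 (adjusted p = 1.9e-08).

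The arginine carrier SLC7A1 and the cystine and glutamate exchanger SLC7A11 rose after GO, by 1.0 (adjusted p = 2.6e-05) and 1.23 (adjusted p = 5.1e-06). After GO-Rg3-DOX they were lower, at −0.79 (adjusted p = 4.6e-05) and −0.55 (adjusted p = 0.0012), the sign of SLC7A11 reversing with a GC content offset. The glutamine carrier SLC1A5 rose after GO from 138 to 227 CPM (0.72, adjusted p = 0.00054) and had 113 CPM after GO-Rg3-DOX (adjusted p = 0.06).

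Genes that use ornithine or arginine outside the cycle were called in numbers that depended on the scaling. Of 21 tested, 12 rose and 2 fell after GO-Rg3-DOX (median log2 fold change 0.46), beside 25.5% and 30.5% of all genes, but 4 rose and 2 fell with library totals alone. GAMT, which makes creatine, rose from 62.3 to 190 CPM (1.61 ± 0.19 SE, adjusted p = 2.1e-06), and ALDH4A1, of proline breakdown, rose by 1.26 (adjusted p = 5.7e-07). ALDH18A1, which makes a precursor of proline and ornithine, rose by 0.64 (adjusted p = 9e-06), and the ornithine aminotransferase OAT by 0.49 (adjusted p = 0.0094). Ornithine decarboxylase ODC1 was higher by 0.39 (adjusted p = 0.0017), a sign that reversed with library totals alone. Among the genes that fell was AMD1, which makes the aminopropyl donor of polyamine synthesis, from 173 to 61.4 CPM (−1.49 ± 0.13 SE, adjusted p = 1.1e-07). After GO, 4 rose and 4 fell, beside 12.1% and 15.4% of all genes. Spermine synthase SMS was among those that fell (−0.57, adjusted p = 0.00015). With library totals alone 1 rose and 5 fell, and with the GC content offset 3 rose and 6 fell.

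GLUL is a pericentral gene, and 11 other pericentral or Wnt genes passed the filter. After GO-Rg3-DOX 1 rose, CYP2E1 (0.57, adjusted p = 0.0046), and 4 fell, beside 25.5% and 30.5% of all genes. The rising call was lost in 3 other fits, with 0 higher and 5 lower both with library totals alone and with the GC content offset, and 0 and 4 with the gene length offset. RNF43 and ZNRF3, which encode ubiquitin ligases that remove Wnt receptors, fell by 2.13 and 1.81 on the log2 scale (adjusted p = 3.5e-10 and 5.1e-09), and TBX3 fell by 2.07 (adjusted p = 1.5e-08). AXIN2, a widely used Wnt target, had 1.59 CPM in untreated cells and 1.75 after GO-Rg3-DOX (adjusted p = 0.59). LGR5 had 15 and 15.6 CPM (adjusted p = 0.73) but fell after GO to 5.75 CPM (−1.37 ± 0.15 SE, adjusted p = 1.4e-05), as did TBX3 (−0.96, adjusted p = 8.5e-05). LGR5 was higher after GO-Rg3 than after GO by 1.04 (adjusted p = 0.00031). After GO-Rg3-DOX, where GLUL fell, 4 of these 11 genes thus fell and 1 rose, and the others did not pass the test. LGR5 fell after GO, where GLUL overlapped its untreated range. Whether these genes and GLUL changed for a shared reason was not tested.

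Transcription factors and sirtuins known to act on urea cycle genes or enzymes were also examined. Of 15 tested, 1 rose and 9 fell after GO-Rg3-DOX, beside 25.5% and 30.5% of all genes, and the list itself was not tested. With library totals alone, 1 rose and 12 fell. The median log2 fold change was −0.92, which was the same with PPARGC1A at its bound, and −1.33 with library totals alone. FOXA1 fell from 62.3 to 5.24 CPM (−3.57 ± 0.10 SE, adjusted p = 2.6e-12) and NFYA, a subunit of the CCAAT-binding factor, from 106 to 20.8 CPM (−2.35 ± 0.12 SE, adjusted p = 6.4e-10). HNF4A, a main regulator of hepatocyte genes, fell from 363 to 180 CPM (−1.02 ± 0.12 SE, adjusted p = 1.8e-06), whereas after GO it rose to 563 CPM (0.63, adjusted p = 0.00056). PPARGC1A, a coactivator of fasting genes, had 7 to 8 counts per untreated sample and 0 in every GO-Rg3-DOX sample, which is at least 7.20-fold lower against a floor of 3 counts over the group. CEBPA was below the filter, with 19 counts over the untreated group and 0 after GO-Rg3-DOX, at least 5.94-fold lower by the same floor. These bounds cover counting error only.

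Among the regulators, CEBPB had 14.6 CPM in untreated cells and 11.2 after GO-Rg3-DOX (adjusted p = 0.037). After GO, 6 of the 15 regulators rose and 1, FOXA1, fell (−0.62, adjusted p = 6.8e-05), beside 12.1% and 15.4% of all genes. With library totals alone the counts were 2 and 1, and with the gene length offset 6 and 3. FOXA1 was higher after GO-Rg3 than after GO by 0.69 (adjusted p = 6.7e-05). By group means, CPS1, ASL and OTC were highest and NAGS and GLUL lowest in the group in which HNF4A, FOXA1 and NFYA were lowest. Whether these regulators had a part in those levels was not tested.

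Hepatocyte markers moved in the direction of CPS1 and ASL. Of 14 tested, 11 rose and 0 fell after GO-Rg3-DOX, beside 25.5% and 30.5% of all genes. The median log2 fold change was 0.76, and 6 rose and 0 fell with library totals alone. Their summed level was 24705 to 24850 CPM in untreated samples, 34038 to 38826 after GO-Rg3-DOX, 15798 to 18699 after GO and 19120 to 22884 after GO-Rg3. AHSG rose by 1.29 ± 0.10 (SE, adjusted p = 3e-08) and FGA, a fibrinogen chain, by 1.04 ± 0.09 (SE, adjusted p = 7.9e-08). After GO, 4 fell and 0 rose, beside 15.4% and 12.1% of all genes. AFP (−1.07, adjusted p = 0.00016) and FGG (−0.60, adjusted p = 0.00077) were among those that fell. With the GC content offset 3 fell and 2 rose, and with DESeq2 4 fell and 1 rose. Of 4 tested markers of other cells, 3 rose after GO-Rg3-DOX, beside 25.5% of all genes. Among them were COL3A1, from 0.881 to 2.29 CPM (adjusted p = 4.5e-05), and EPCAM, by 0.49 on the log2 scale (adjusted p = 0.00072). The summed level of the other-cell markers was 219 to 229 CPM in untreated samples and 223 to 261 CPM after GO-Rg3-DOX. With library totals alone 2 of these 4 rose and 1 fell, and 2 rose with either the GC content or the gene length offset. The part of these shifts in the change of the 9 genes was not tested.

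**Figure D5:**
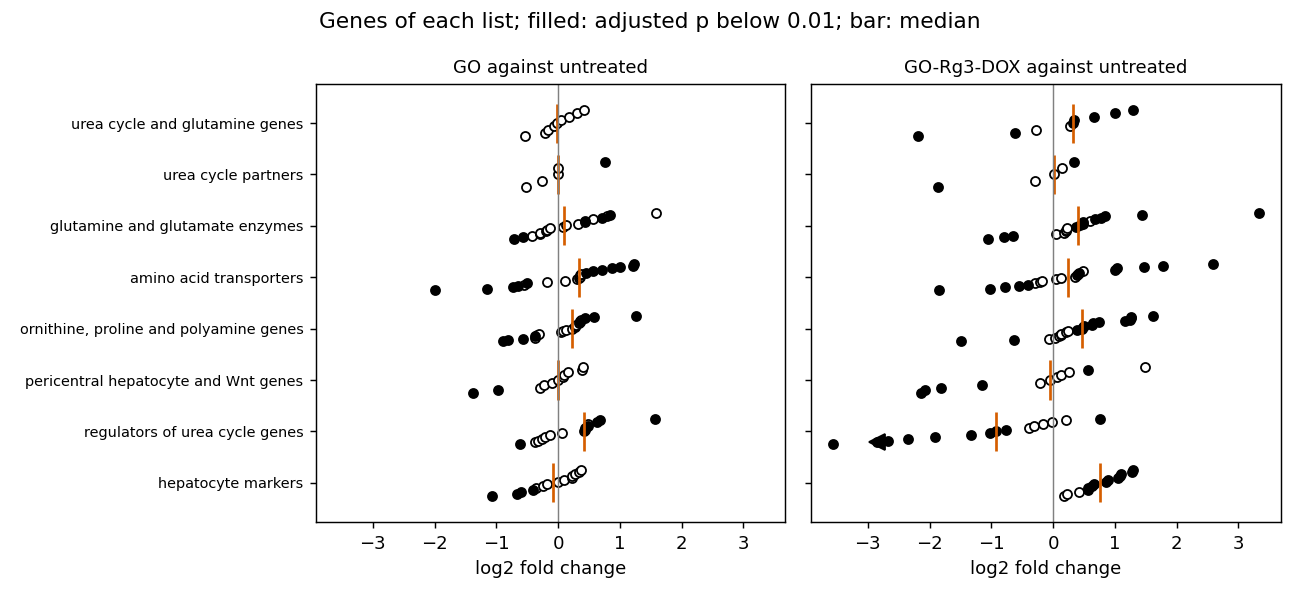
Log2 fold change of each tested gene of the urea cycle and glutamine set and of 7 other lists, after GO and after GO-Rg3-DOX, filled where the adjusted p is below 0.01, with the list median as a bar. The left-pointing triangle is PPARGC1A, drawn at its bound, and with library totals alone the signs of ASS1, SLC25A15, SLC25A13, ASNS, ODC1, SLC38A7 and SLC7A2 after GO-Rg3-DOX reverse.

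The genes whose pattern was most like that of NAGS over the 12 samples were ASB6 (Pearson correlation of log2 CPM 0.994), XRRA1 (0.991) and SALL2 (0.991). The 12 points share 4 groups, of which GO-Rg3-DOX stands apart, so the correlations mostly describe that difference between groups. ASB6 had 15.7 CPM on average in untreated cells and 7.35 after GO-Rg3-DOX. XRRA1 had 10.9 and 5.74 CPM. SALL2 had 20.6 and 3.81 CPM, and all 3 stayed near their untreated levels after GO and GO-Rg3, as NAGS did.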

How the data were processed

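The authors made stranded mRNA libraries, mapped reads to GRCh37 with the NGI-RNAseq pipeline and counted them per gene with featureCounts. The counts deposited by the authors are whole numbers without normalization. The annotation release and the use of strand in counting are not given in the sources used here. Samples were grouped by their labels.

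A gene was kept if 3 or more of the 12 samples had 10 or more counts (17092 genes). Counts were scaled by TMM and fitted in a model of 4 groups with edgeR 4.0.16 (R 4.3.3, quasi-likelihood test, Benjamini-Hochberg adjustment over all genes tested). Changed means an adjusted p below 0.01. The study's methods used DESeq2 with this filter and threshold, and a log2 fold change of 1. In data simulated for GO against untreated cells (17092 genes), 66 of 100 genes changed by a log2 fold of 1 and 94 of 100 changed by 2 were recovered, with 0 unchanged genes called. No other genes were changed there, as many rose as fell, and there was no trend with GC content. The simulation therefore cannot show the rate of false calls in the real data, where 27.6% of genes were called after GO. CPM per kb used the length of the canonical transcript in GENCODE for GRCh37. Tables and figures were made with Python (pandas). Reads carried no molecular identifiers, so floors cover counting error only.

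The members, lists and tests were chosen with earlier results of these data known. All 9 members are named in every comparison. Of the other lists, a set of genes chosen by function was named whatever their values, apart from items that are not reported here, and per list the 2 rising and 2 falling genes with the smallest adjusted p over the 4 comparisons. For the member with the largest changed log2 fold change, the 3 genes most correlated with it are named. LYZ, PECAM1 and KRT7 are named as markers, and MED23, SPRYD4, MIR621 and ASS1P12 as genes that could share reads; which of the latter to name was decided after their values were seen.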

Additional observations from a re-analysis of the deposited data

How the results depend on the processing

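Alternatives were RLE scaling, library totals alone, no mitochondrially encoded genes, no filter, at least 10 counts in every sample, DESeq2 1.42.0, only the 6 samples compared, the replicate block, GC content and gene length offsets with and without it, a prior count of 2, other thresholds and each sample left out. Over these, 441 values of single members were tallied. After GO-Rg3-DOX they cover every member. After GO they cover ASL, OTC, ARG1, ASS1, SLC25A15 and GLS2, and after GO-Rg3 only ARG1 and GLS2. For GO-Rg3 against GO they cover ARG1, ASL, OTC and ASS1. Other pairs of member and comparison, such as GLUL after GO (log2 fold change −0.018), were left out, so reversals there are not counted. The tallied values kept direction and side of the threshold in 392 cases, passed it in 16, lost it in 28 and reversed in 5. Another threshold alone cannot reverse a direction. The reversals among the tallied values were all after GO-Rg3-DOX. ASS1 had −0.08 with library totals alone, −0.02 with the GC content offset and −0.02 with GC content offset and replicate block. ARG1 (−0.15) and SLC25A15 (−0.10) reversed with library totals alone. The 7 members changed after GO-Rg3-DOX became 4 at an adjusted p below 0.0001 and 4 with library totals alone, 5 with the gene length offset with or without the block (where OTC and ASS1 lost the call), and 4 to 6 with a sample left out, which also leaves fewer samples for the spread. The 0 members after GO became 2 at an adjusted p below 0.05, 1 with only the 6 samples compared, 1 with the GC content offset, 1 with that offset and the block, and 0 to 1 with a sample left out. The 0 members for GO-Rg3 against GO became 2 at 0.05, 2 with the GC content offset, 2 with that offset and the block, and 0 to 1 with a sample left out. For GO-Rg3 against untreated cells the count was 0 throughout. Why these moved was not tested, beyond what each setting changes by construction. Without the mitochondrially encoded genes ASS1 (adjusted p = 0.012) and SLC25A15 (0.014) lost the call, as both did with no filter (0.14 and 0.19). With the replicate block 7 members were called after GO-Rg3-DOX. The labels do not say what replicate numbers stand for. Same-numbered samples of different groups had deviations correlated at 0.091 on average (18 pairs, −0.024 to 0.253) and others at −0.045 (36 pairs), and a sample correlated best with its own number in 23 of 36 cases. At these depths NAGS and GLS2 rest on under 100 counts per sample, which limits their precision.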
